A study of Homo sapiens with 6 samples.

Results

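The enzymes described are those that begin O-mannose glycans on proteins and build the sugar chain of dystroglycan, with 5 members: POMT1, POMT2, POMGNT1, B4GAT1 and LARGE2. They were chosen by symbol, through the RefSeq accession in each probe set's name. Genes without a probe set were left out, so all 5 of the 5 were on the array, with 7 of its 1259 probe sets. The arrays were made from HCT116, a microsatellite-unstable colorectal cancer cell line engineered to express a gene when doxycycline is added. By the titles the inducible gene is wild-type ACVR2, which encodes an activin receptor; another label names TGFBR2 and AIM2 beside it. The +DOX group had 3 arrays from cells given doxycycline and activin A, and the -DOX group had 3 arrays from the same kind of cells given activin A alone. All cells thus carried the construct and received activin A. No array came from cells that had doxycycline but no inducible gene, so the drug and the induced gene cannot be told apart. The labels give no dose, no time and no clone, and do not say that replicates were separate cultures, so the p-values cover the spread between arrays only, and that spread may be technical.

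O-mannosylation starts in the endoplasmic reticulum, where POMT1 and POMT2 act together as a complex that moves mannose from dolichol-phosphate mannose onto serine or threonine of proteins such as dystroglycan. POMGNT1 then adds N-acetylglucosamine to that mannose in the Golgi. On a different kind of chain B4GAT1 adds the glucuronic acid that primes the polymer, and LARGE2 extends it into matriglycan, the repeating xylose and glucuronic acid chain by which dystroglycan binds laminin, agrin and perlecan. Inherited loss of POMT1, POMT2, POMGNT1 or B4GAT1 causes muscular dystrophies with underglycosylated dystroglycan.

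The promoter windows of POMT1 and POMT2 are shown because the question for this pair is whether the 2 subunits of the complex moved together. They come from RefSeq on GRCh38.p14 and run from 250 bases before the gene's start to 50 after it. The POMT1 window lies at chr9:131502668-131502967 on the + strand and the POMT2 window at chr14:77320834-77321133 on the - strand. Both are written 5′ to 3′ on the gene's own strand, and capitals mark a match on either strand to any of 3 motifs: CAGAC, a SMAD-binding element, GGGCGG, the GC box, and TGCGCA, the left part of the NRF1 motif. The motifs were chosen after the sequences had been read.
POMT1: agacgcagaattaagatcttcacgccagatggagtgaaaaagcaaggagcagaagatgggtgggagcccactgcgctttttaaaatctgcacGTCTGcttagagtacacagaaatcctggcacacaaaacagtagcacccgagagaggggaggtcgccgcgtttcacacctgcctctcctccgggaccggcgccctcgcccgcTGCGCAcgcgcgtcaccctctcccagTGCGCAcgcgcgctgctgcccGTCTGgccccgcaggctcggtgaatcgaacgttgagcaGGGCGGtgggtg
POMT2: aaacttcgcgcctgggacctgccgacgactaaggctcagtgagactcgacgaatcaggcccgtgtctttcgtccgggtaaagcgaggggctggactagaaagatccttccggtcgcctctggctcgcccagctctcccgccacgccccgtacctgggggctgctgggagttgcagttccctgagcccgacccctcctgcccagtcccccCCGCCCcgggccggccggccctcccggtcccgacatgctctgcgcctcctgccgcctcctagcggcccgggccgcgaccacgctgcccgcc
POMT1 held 2 matches to TGCGCA, which began 47 and 21 bases before the start, and POMT2 held 0. POMT1 also held 2 matches to CAGAC, as GTCTG, from 158 bases before the start and from base 1 of the transcript, and POMT2 held 0. The GC box occurred 1 time in each window, from base 39 of the transcript in POMT1 and from 41 bases before the start in POMT2. No match overlapped another. Over all 35116 windows of this length, 8.24% held TGCGCA, 45.3% held CAGAC and 45.0% held GGGCGG. The POMT1 window held 27 CpG dinucleotides, more than 71.8% of all windows, and the POMT2 window 31, more than 79.3%, where the median was 14. Of the other members POMGNT1 was matched in this sequence table, with 2 windows, and B4GAT1 and LARGE2 were not. These matches describe letters only and were not measured as binding in these cells.

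All values are log2 expression levels made by the authors with RMA, and each difference is +DOX minus -DOX on that log2 scale. All 7 member probe sets lay above 6.88, the lower quartile of all values, on every array, and their values ran from 8.17 to 10.35. Because probes differ in brightness, the level of one gene's probe set was not set against another's. The -DOX replicate 3 array stood apart from the rest: its correlations with the others across probe sets ran from 0.982 to 0.991, against 0.995 to 0.999 among the other 5 arrays. The differences of the members and of the pathway genes named below are therefore also given without it. ACVR2A, the gene meant to be induced, was not higher with doxycycline (8.15, 8.02 and 8.08 on the +DOX arrays, 8.25, 8.07 and 8.70 on the -DOX arrays, replicates 1 to 3), so induction could not be read from this probe set. Where its probes lie relative to the transgene is not given, and why it was not higher was not tested. Of 12 markers of colon epithelium only MUC1, MUC2 and LGALS4 had a probe set named through its accession. MUC1 averaged 8.68 on +DOX and 8.80 on -DOX arrays on its brightest probe set, with groups that did not overlap (limma, adjusted p = 0.673). Its other probe sets were also wholly lower on the +DOX arrays. They differed by -0.14 (limma, adjusted p = 0.501) and -0.10 (limma, adjusted p = 0.573). MUC2 averaged 7.27 on +DOX and 7.29 on -DOX arrays, and LGALS4 7.30 on both. For the 5 measured markers of other cells, out of 10, the median difference was -0.02.

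Both subunits of the O-mannosyltransferase read lower on the +DOX arrays than on the -DOX arrays, by almost the same amount, and neither difference passed the test over all probe sets. POMT1 read 8.41, 8.32 and 8.48 on +DOX replicates 1, 2 and 3, and 8.71, 8.52 and 8.67 on -DOX replicates 1, 2 and 3. Every +DOX array thus lay below every -DOX array, although the nearest arrays of the groups were only 0.036 log2 units apart. The mean was 8.41 ± 0.08 with doxycycline and 8.63 ± 0.10 without (SD, n = 3 each), a difference of -0.23 (SE 0.07, 95% confidence interval -0.40 to -0.06; limma, adjusted p = 0.477). In linear terms the -DOX level was 1.17-fold the +DOX level. An exact two-sided permutation test gave p = 0.1, the smallest that 3 arrays against 3 allow.

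POMT2, the partner without which POMT1 is inactive, read 8.24, 8.17 and 8.32 on +DOX replicates 1, 2 and 3, and 8.41, 8.40 and 8.63 on -DOX replicates 1, 2 and 3. The groups again did not overlap, with 0.075 log2 units between the nearest arrays, and the array that stood apart gave the highest value. The mean was 8.25 ± 0.08 with doxycycline and 8.48 ± 0.13 without (SD, n = 3 each), a difference of -0.23 (SE 0.08, 95% confidence interval -0.43 to -0.04; limma, adjusted p = 0.559). An exact permutation test of POMT2 also gave p = 0.1. Without -DOX replicate 3 the difference was -0.16 for POMT2 (limma, adjusted p = 0.432) and -0.21 for POMT1 (limma, adjusted p = 0.464).

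Among the member probe sets 2 of 7 had groups that did not overlap, POMT1 and POMT2, where 15.8% of all 1259 probe sets did. The same 2 of 7 were under an unadjusted limma p of 0.05, against 7.78% of all probe sets. Past an adjusted p of 0.05 there were 0 of 7 members and 0% of all probe sets, the smallest adjusted p being 0.158. Of the 1259 probe sets 104 (8.26%) lay wholly lower on the +DOX arrays and 95 (7.55%) wholly higher.

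**Figure D1:**
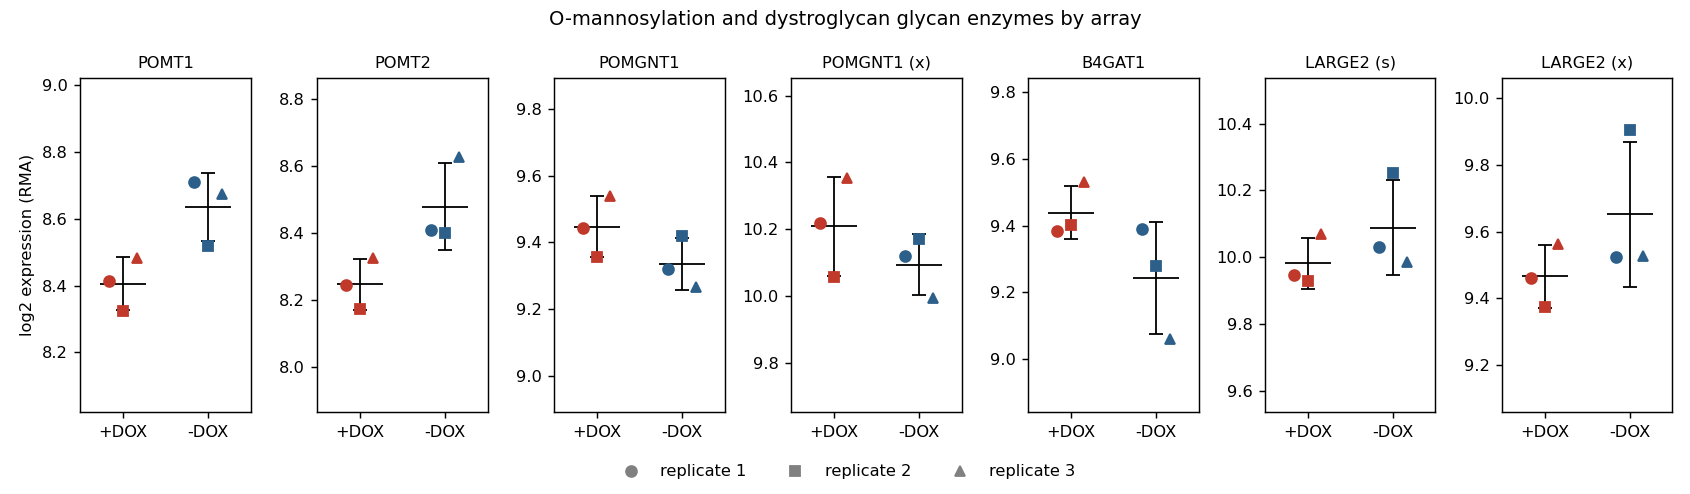
Log2 expression (RMA) of the 7 member probe sets on each array, +DOX left and -DOX right, with the symbol showing the replicate, the horizontal line the group mean and the bar 1 SD (n = 3); each panel spans 1 log2 unit around its own centre, and (s) and (x) mark the probe set types that can share sequence with other transcripts. The POMT1 and POMT2 arrays with doxycycline all lie below those without, while in the other 5 panels the groups overlap.

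The sizes of the POMT1 and POMT2 differences were compared directly. Log2 POMT1 minus log2 POMT2 changed by 0.0034 between the groups (SE 0.08, 95% confidence interval -0.21 to 0.21), with an exact two-sided permutation p of 1. The interval reaches about as far to either side as each gene's own difference, so changes that differ between the subunits by up to 0.21 log2 units are not shown to be absent. Within the +DOX group the 2 genes tracked each other closely. The deviations of POMT1 from its own group mean were 0.007, -0.083 and 0.076 on +DOX replicates 1, 2 and 3, and those of POMT2 were -0.002, -0.076 and 0.078. Within the -DOX group they did not: POMT1 deviated by 0.077, -0.116 and 0.040 on replicates 1, 2 and 3, and POMT2 by -0.069, -0.080 and 0.149. Replicate 1 was the highest -DOX array for POMT1, whereas for POMT2 it was level with replicate 2 and replicate 3 was the highest.

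The order seen within the +DOX group was shared well beyond this pair. Replicate 3 was the highest and replicate 2 the lowest +DOX array for 6 of the 7 member probe sets, and for 28.0% of all probe sets. In the remaining one, B4GAT1, replicate 3 was also the highest and replicate 1 the lowest. Among the 907 probe sets above the lower quartile on every array the share with that order was 34.2%. The upper quartile of the +DOX arrays had the same order, at 9.25, 9.21 and 9.36 for replicates 1, 2 and 3. Their medians, 7.61, 7.62 and 7.63, and lower quartiles, 6.85, 6.88 and 6.86, did not have it. The part of this shared order in the tracking of POMT1 and POMT2 was not tested.

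**Figure D2:**
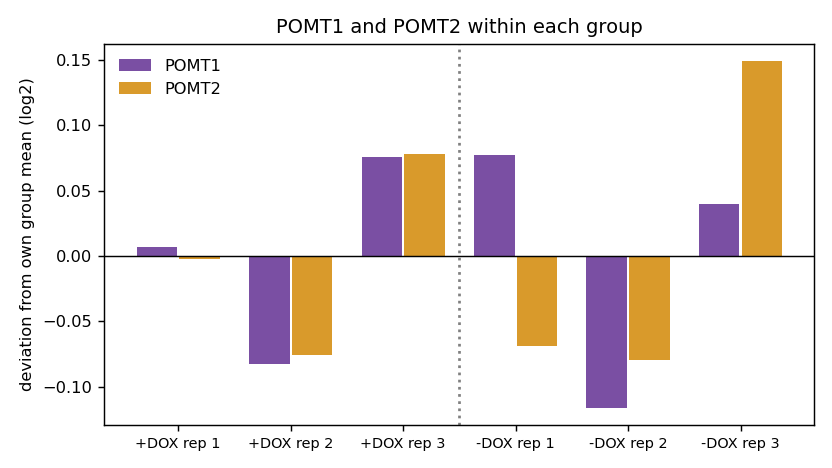
Deviation of POMT1 and POMT2 from their own group mean (log2 units) on each array, +DOX arrays left of the dotted line and -DOX arrays right of it. The bars nearly coincide on the 3 +DOX arrays, while on -DOX replicate 1 POMT1 is at 0.077 and POMT2 at -0.069.

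Likeness of profile was measured as the root mean square distance over the 6 arrays after each probe set was centred on its own mean. POMT2 was number 16 of 1258 probe sets by closeness to POMT1, at 0.076 log2 units, where the median distance was 0.156. POMT1 was number 22 by closeness to POMT2, where the median was 0.164. When each probe set was instead centred within each group, a measure chosen after seeing the data that takes out the difference between groups, POMT2 was number 208 for POMT1 and POMT1 number 122 for POMT2. The distance of the pair was 0.076 either way, while the median distance within groups was 0.104 for POMT1 and 0.116 for POMT2. The pair thus ranked closer with the difference between groups left in than with it taken out, because the other probe sets came closer.

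The genes closest to POMT1 were NDST1 at 0.044, HK1 at 0.046, NDST2 at 0.050, EXTL3 at 0.060 and MST1R at 0.064 log2 units. NDST1 and NDST2 are enzymes that begin the sulphation of heparan sulphate, EXTL3 acts at the start of its chains, HK1 is a hexokinase and MST1R a receptor tyrosine kinase. Their differences were -0.23, -0.30, -0.15, -0.19 and -0.32 in that order. The genes closest to POMT2 were HNRNPK at 0.046, CHST3 at 0.047, EEF2 at 0.048, SLC35A4 at 0.057 and DLL1 at 0.060. HNRNPK encodes an RNA-binding protein, CHST3 a chondroitin sulphotransferase, EEF2 a translation elongation factor, SLC35A4 a member of the nucleotide sugar transporter family and DLL1 a Notch ligand. Their differences were -0.19, -0.24, -0.24, -0.15 and -0.13, and the list shares no gene with that of POMT1. Both lists were chosen with the difference between groups left in. Differences of the same sign as those of POMT1 and POMT2 therefore follow from the choice and are no separate result. How often heparan sulphate genes occur on this focused array was not counted.

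POMGNT1, the next enzyme after the POMT complex, read slightly higher with doxycycline on both of its probe sets, with overlapping groups. Its brighter probe set, of the x type that can bind other transcripts, read 10.22, 10.06 and 10.35 on +DOX replicates 1, 2 and 3, and 10.12, 10.17 and 9.99 on -DOX replicates 1, 2 and 3. The mean was 10.21 ± 0.15 with and 10.09 ± 0.09 without doxycycline (SD, n = 3 each), a difference of 0.12 (SE 0.09, 95% confidence interval -0.11 to 0.34; limma, adjusted p = 0.730). The other POMGNT1 probe set averaged 9.45 ± 0.09 with and 9.34 ± 0.08 without (SD, n = 3 each), a difference of 0.11 (SE 0.07; limma, adjusted p = 0.692), and of 0.08 without -DOX replicate 3. The 2 POMGNT1 probe sets therefore gave the same size of difference. For the brighter one it was 0.06 without -DOX replicate 3, 0.04 without +DOX replicate 3 and 0.19 without +DOX replicate 2.

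B4GAT1 also read higher with doxycycline, with overlapping groups. It read 9.38, 9.40 and 9.53 on +DOX replicates 1, 2 and 3, and 9.39, 9.28 and 9.06 on -DOX replicates 1, 2 and 3. The lowest +DOX arrays were level with -DOX replicate 1, and the array standing apart was the lowest of all 6. The mean was 9.44 ± 0.08 with and 9.24 ± 0.17 without doxycycline (SD, n = 3 each), a difference of 0.20 (SE 0.09, 95% confidence interval -0.04 to 0.43; limma, adjusted p = 0.682). Without -DOX replicate 3 it was 0.11 (limma, adjusted p = 0.691).

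LARGE2, the matriglycan polymerase, read lower with doxycycline on both probe sets, which are of the s and x types. The brighter one read 9.95, 9.93 and 10.07 on +DOX replicates 1, 2 and 3, and 10.03, 10.25 and 9.99 on -DOX replicates 1, 2 and 3. Here -DOX replicate 2 was the high array. The mean was 9.98 ± 0.08 with and 10.09 ± 0.14 without doxycycline (SD, n = 3 each), a difference of -0.11 (SE 0.08, 95% confidence interval -0.32 to 0.10; limma, adjusted p = 0.730). Without -DOX replicate 2 it was -0.03, and without -DOX replicate 3 it was -0.16. The other LARGE2 probe set averaged 9.47 ± 0.10 with and 9.65 ± 0.22 without (SD, n = 3 each), a difference of -0.19 (SE 0.12; limma, adjusted p = 0.710), and of -0.25 without -DOX replicate 3.

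The other genes of the pathway were taken from a list of 42, of which 22 had a probe set named through its accession. Of these 22 genes 13 had higher and 9 lower values with doxycycline, with a median difference of 0.0093, and 0 passed the test in either direction. Without -DOX replicate 3 12 of them had higher and 10 had lower values, and the median was 0.0038. Over all 927 named genes the median was -0.01, with 415 higher and 512 lower. Leaving out -DOX replicate 3 made this median -0.0175, with 344 higher and 583 lower. Dystroglycan itself (DAG1) and the kinase POMK had no probe set named through the accession table, nor had any of the TMTC family or TMEM260, the other O-mannosyltransferases. They are not analysed here.

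Enzymes that supply the mannose donor had higher values with doxycycline in 6 of 7 cases, with a median difference of 0.17, and 0 passed. DPM3, the subunit that anchors dolichol-phosphate mannose synthase, read 10.45, 10.40 and 10.58 on +DOX replicates 1, 2 and 3, and 10.27, 10.33 and 9.14 on -DOX replicates 1, 2 and 3. Its groups did not overlap, but -DOX replicate 3 lay far below all other arrays, and the difference of 0.57 (SE 0.33; limma, adjusted p = 0.692) was 0.18 without it. DPM1, the catalytic subunit, differed by 0.23, and by 0.07 without that array. The phosphomannomutase genes PMM1 and PMM2 differed by 0.33 and -0.10, and by 0.11 and 0.0016 without it. MPI, which makes mannose 6-phosphate from fructose 6-phosphate, differed by 0.09, and GMPPA and GMPPB, the subunits for making GDP-mannose, by 0.17 and 0.15. Without that array these were -0.0061, 0.05 and 0.02. That array gave the lowest of all 6 values for 6 of the 7 genes, where it did so for 35.1% of all genes, and the median of the 7 without it was 0.05. PMM2 was the exception with all arrays, and MPI was below 0 without that array.

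**Figure D3:**
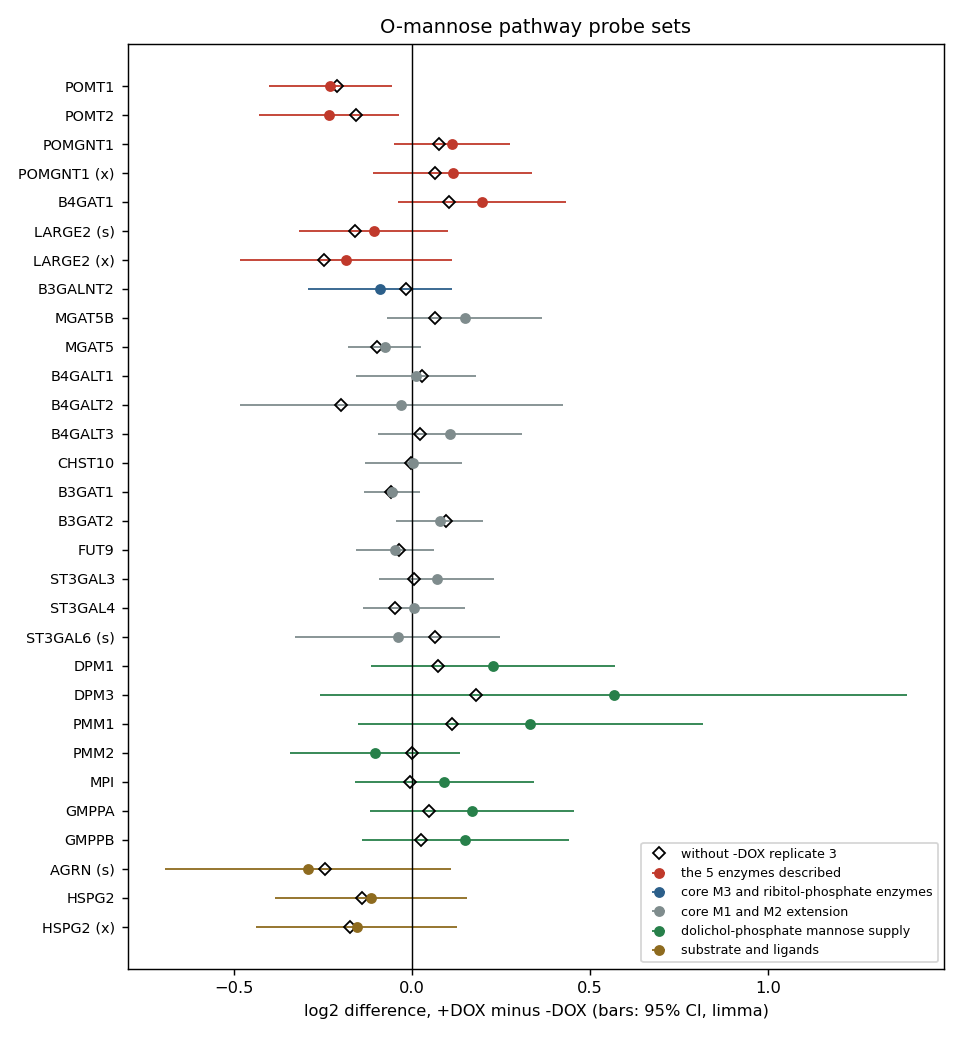
Log2 difference, +DOX minus -DOX, of the member probe sets and those of the 22 further measured genes of the pathway list, grouped by role. Extension genes that the text does not name are included. Filled points are for all 6 arrays, bars for the 95% confidence interval from limma and open diamonds for the difference without -DOX replicate 3. POMT1 and POMT2 are the only probe sets here whose interval lies wholly on one side of 0, before any adjustment, and the donor supply genes move towards 0 without that array.

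Of 5 further genes listed for the core chain that carries matriglycan, 1 was measured. This was B3GALNT2, which adds N-acetylgalactosamine to that core. It differed by -0.09, and by -0.02 without -DOX replicate 3. Among the 12 genes that extend the other O-mannose cores, all of them on the array, 7 had positive and 5 negative differences. Their median was 0.01, and 0 passed the test. The 4 with the smallest p were MGAT5, at -0.08, B3GAT1, a glucuronyltransferase of the HNK-1 epitope, at -0.06, MGAT5B, which branches O-mannose glycans, at 0.15, and B3GAT2, at 0.08. Without -DOX replicate 3 MGAT5 was at -0.10, B3GAT1 at -0.06, MGAT5B at 0.07 and B3GAT2 at 0.10. B3GAT2 lay under the lower quartile of all values, where the share of background is not known.

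Of the genes for dystroglycan and the proteins its glycan binds, AGRN and HSPG2 were measured. AGRN, which encodes agrin, read 9.07, 9.12 and 9.45 on +DOX replicates 1, 2 and 3, and 9.22, 9.69 and 9.60 on -DOX replicates 1, 2 and 3. Its groups overlapped, and the difference was -0.29 (SE 0.16; limma, adjusted p = 0.692), and -0.24 without -DOX replicate 3. HSPG2, which encodes perlecan, differed by -0.16 on its brighter probe set and by -0.11 on the other, and by -0.17 and -0.14 without that array.

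**Figure D4:**
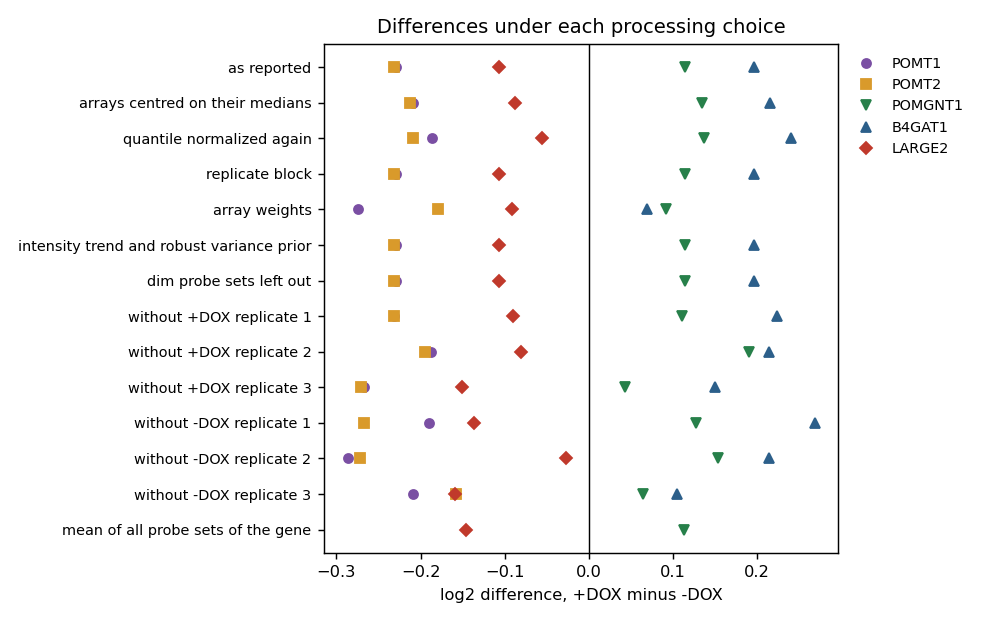
Log2 difference, +DOX minus -DOX, of the 5 members (brightest probe set of each) as reported and under each other processing choice or with 1 array left out. POMT1, POMT2 and LARGE2 stay below 0 and POMGNT1 and B4GAT1 above 0 under every choice shown.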

How the data were processed

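Total RNA from 6 samples of HCT116 cells was labelled with biotin and hybridised to a focused Affymetrix glycogene array. The authors deposited log2 values made with RMA, per the submitters' processing notes; version and further steps are not given in the sources used here. Gene symbols came from the unversioned RefSeq accession in each probe set name and a GRCh38.p14 table, which gave 1043 of 1259 probe sets 1 symbol. No genome build is named for the array, so gene coordinates were not used.

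The +DOX and -DOX arrays were fitted with limma 3.58.1 under R 4.3.3, with all arrays and no block. The moderated test was two-sided, with Benjamini-Hochberg adjustment over 1259 probe sets and a threshold of 0.05. The fit was tested on simulated data with equal noise on all arrays and planted changes larger than those of the members. That run does not show whether changes of the members' size would be found. The brightest probe set stood for a gene. Named genes were the members, the measured genes of the pathway list (for the extension list the 4 with the smallest p), ACVR2A and the 5 genes nearest to each POMT gene. The members and lists were chosen with earlier results of these data known. Some genes of the pathway list are not reported here. With 3 arrays a group, the median 95% interval of a difference was 0.152 log2 units to each side; more arrays would narrow it. Alternatives were array centring, quantile normalization, a replicate block, array weights, a variance trend, a filter on dim probe sets and leaving out each array. Same-numbered arrays did not deviate together (correlations of deviations -0.147, -0.043 and -0.157), so numbers were not taken as pairs.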

Additional observations from a re-analysis of the deposited data

How the results depend on the processing

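The differences of POMT1, POMT2, POMGNT1, B4GAT1 and LARGE2 kept their direction and stayed short of the threshold under every alternative run. Over these, including leaving out single arrays, POMT1 lay between -0.29 and -0.19 (lowest limma adjusted p 0.0928, with array weights), POMT2 between -0.27 and -0.16, POMGNT1 between 0.04 and 0.19, B4GAT1 between 0.07 (array weights) and 0.27, and LARGE2 between -0.16 and -0.03. Quantile normalizing again moved LARGE2 to -0.06. With array weights, whose estimation stopped before convergence, 1 of all probe sets passed, against 0 as reported, and 0 of the pathway. The weights were lowest for -DOX replicate 3, at 0.198, and -DOX replicate 2, at 0.393. On the other arrays they ran from 1.28 to 3.36. Without -DOX replicate 2 the differences of POMT1 and POMT2 were -0.29 and -0.27. The change of POMT1 minus POMT2, 0.0034 as reported, turned to -0.00087 without +DOX replicate 1, -0.01 without -DOX replicate 2 and -0.051 without -DOX replicate 3, so the sign of this near-zero value depends on single arrays. Leaving out single arrays gave -0.051 to 0.076 (0.076 without -DOX replicate 1). With the replicate block the differences of POMT1 and POMT2 were -0.23 and -0.23 (limma, adjusted p = 0.607 for both), and 0 probe sets passed; the block changed no call. How much of the values is background is not known, since no detection calls were used.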
